A study of Mus musculus with 61 samples.

Results

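The comparison followed mouse primary B cells late in activation, from 48 h to 72 h, at the immunoglobulin heavy chain locus Igh, and drew on 24 of the 61 Tri-C libraries. All 24 came from cells whose titles give B18 AIDKO, that is, cells without AID, kept in complete RPMI medium with LPS and IL4 and given no TPL. Members were chosen by those titles and by 3 capture probes, Emu, hs4 and IgG1. The Emu and hs4 captures each had 3 libraries at 48 h and 3 at 72 h. The IgG1 capture had 3 at each time for clone 1 and 3 for clone 2, and the clones were summed by replicate number to give 3 samples against 3. The labels name clone 1 for the Emu and hs4 libraries too, and do not say what a clone or a replicate is, so p-values measure only the spread between these samples, which may be technical. The labels give no age, sex or further strain.

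Class switch recombination exchanges the constant region of an antibody by joining the switch region ahead of Ighm to the switch region of a downstream constant gene, with the DNA between them lost. The deaminase AID starts the breaks, after transcription has opened both switch regions. Emu is the intronic enhancer between the J segments and Ighm, and hs4 is an enhancer of the 3' regulatory region past the last constant gene. LPS with IL4 is the standard culture treatment that directs switching to IgG1. Because these cells lacked AID, their maps describe contacts in a locus that cannot start recombination this way.

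Tri-C reports pairs of fragments found together with a captured viewpoint, so each contact here is a 3-way meeting of the viewpoint with 2 further places. The deposited maps had 234 bins of 1 kb, no coordinates and no gene names, and each was scaled to a sum of 300000. Positions are therefore kb from the first bin. Sites were windows around the viewpoints, with hs4 at 31 kb, IgG2a at 85 kb, IgG1 at 142 kb, IgG3 at 169 kb and Emu at 229 kb. There were 5 stretches outside these windows, among them IgG2a to IgG1, from 91 to 137 kb, and IgG3 to Emu, from 175 to 224 kb. A level is the percentage of a library's contact ends in a block, site or stretch, or of its contacts in a pair of places. Recovered depth was 13444 to 37251 contacts per library. It moved with time in the Emu capture, at 21245 to 21831 contacts at 48 h and 13444 to 16212 at 72 h, and its part in the Emu results was not tested.

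No 10 kb block passed the test from 48 h to 72 h within any capture. With limma and Benjamini-Hochberg adjustment at 0.05, the Emu, hs4 and IgG1 captures each called 0 of 24 blocks (0%), with lowest adjusted p of 0.114, 0.129 and 0.0763. At an unadjusted p under 0.05 the counts were 7, 3 and 3, and limma with voom on recovered contacts called 2, 2 and 5. All 72 h samples lay above or all below all 48 h samples in 6 blocks of the Emu capture (25%), 4 of the hs4 capture (16.7%) and 4 of the IgG1 capture (16.7%). The precision differed between captures. The median standard error of a block's log2 change was 0.2 in the Emu capture, 0.147 in the hs4 capture and 0.0813 in the IgG1 capture. Emu blocks that were not called reached a log2 value of 0.86, at 100-110 kb, with a 95% interval of 0.0651 to 1.66.

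**Figure D1:**
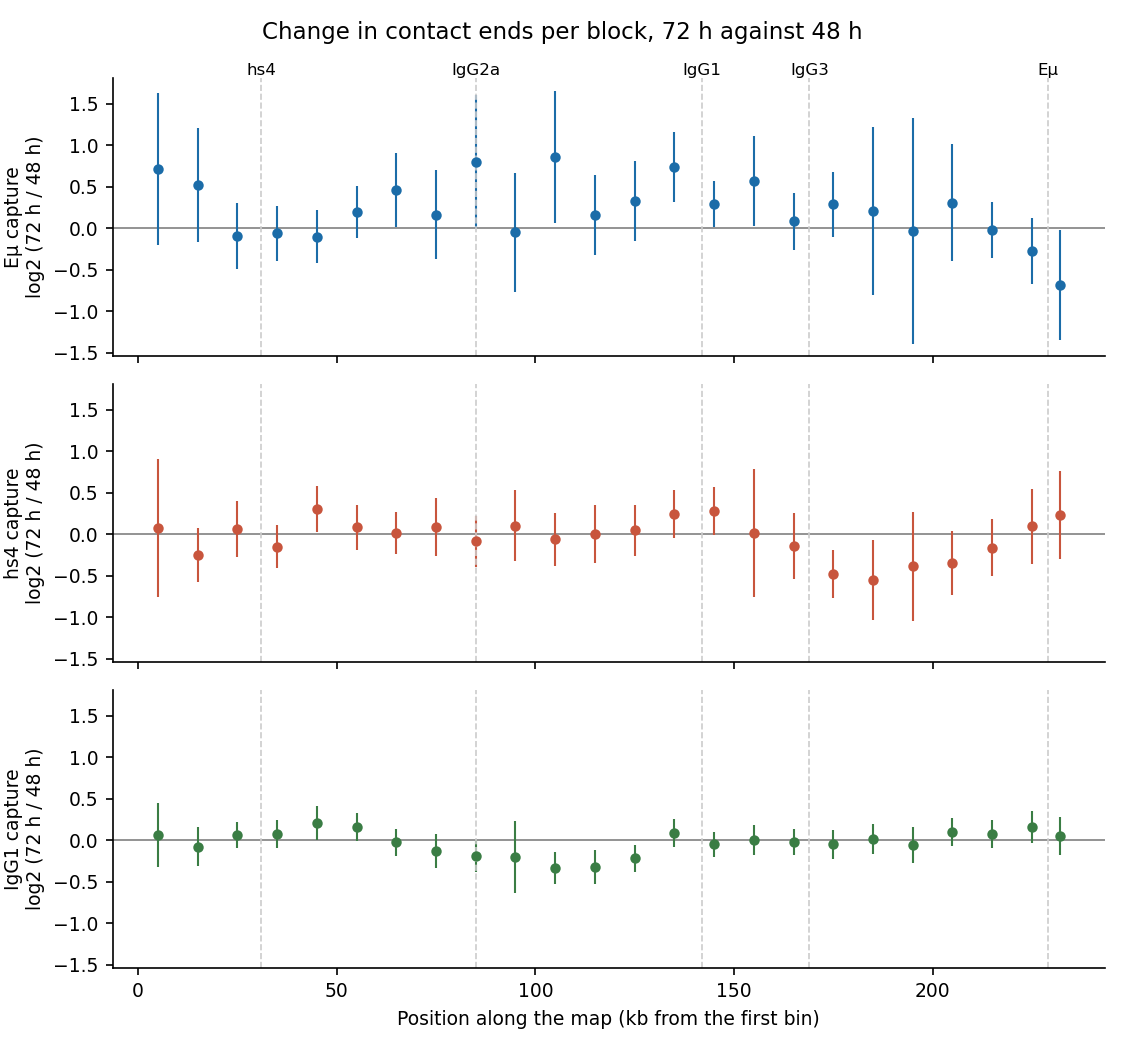
Log2 change in contact ends from 48 h to 72 h (y axis) for each of 24 blocks along the map (x axis, kb from the first bin), one panel per capture. Points are limma estimates, bars are 95% confidence intervals and dashed lines mark viewpoints. In the IgG1 capture the blocks from 100 to 130 kb lie below 0, and in the Emu capture the block at 130-140 kb lies above 0.

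In the main fit the Emu capture had a larger share of its ends in the middle of the locus at 72 h. Its ends in the stretch from IgG2a to IgG1 made up 10.1%, 9.34% and 8.62% at 48 h and 12.9%, 13.8% and 11.8% at 72 h. Every 72 h sample lay above every 48 h sample. The log2 change was 0.46 (SE 0.107), and it passed the test (limma adjusted p = 0.0367). Several alternatives given below lost this call. Of the 207 pairs, sites and stretches tested in this capture, 4 were called (1.93%), 3 of them higher at 72 h and 1 lower.

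The other calls of the Emu capture lay at IgG2a and beside Emu itself. Contacts with both ends in the block at 80-90 kb made up 0.938%, 0.736% and 0.643% at 48 h and 2%, 2.49% and 1.19% at 72 h, a log2 change of 1.23 (SE 0.306, limma adjusted p = 0.0367). The IgG2a window covers this block, and contacts within that window rose with it, from 0.837% ± 0.196 to 1.93% ± 0.643 (SD, n = 3 each; limma adjusted p = 0.0457). Contacts with both ends in the last 4 kb of the map, at 230-234 kb, fell from 3.84%, 5.44% and 5.63% to 3.23%, 1.28% and 3.19%, a log2 change of -1.05 (SE 0.26, limma adjusted p = 0.0367). This last stretch of the map is the viewpoint's own neighbourhood. Among block pairs that missed the test, the next largest statistics on each side were for contacts within 130-140 kb, at a log2 value of 0.71 (adjusted p = 0.116), and 70-80 kb with 220-230 kb at -1.79 (adjusted p = 0.268).

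Among the 24 blocks of the Emu capture, the highest log2 value was at 100-110 kb. The block at 100-110 kb held 1.82%, 0.712% and 1.29% of ends at 48 h and 2.18%, 2.25% and 2.1% at 72 h (log2 0.86, limma adjusted p = 0.17). The blocks at 130-140 kb and 140-150 kb gave 0.74 and 0.29, and on the negative side 230-234 kb, 220-230 kb and 40-50 kb gave -0.68, -0.27 and -0.10. None of these blocks passed the test.

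On recovered contacts, with voom, all 4 calls were lost and the log2 values were nearer 0, at 0.36 for the stretch (adjusted p = 0.111), 0.55 within 80-90 kb (adjusted p = 0.553), 0.53 within the IgG2a window (adjusted p = 0.568) and -0.27 within 230-234 kb (adjusted p = 0.922). Each of the 4 calls was also lost with a pseudocount of 10 or of 200 in place of 50, with adjusted p between 0.0618 and 0.079, and each was lost without 72 h replicate 2, with adjusted p = 0.361. When 1 library was left out, the 3 higher features were called only without 48 h replicate 1 (adjusted p = 0.00255), and were lost without 48 h replicate 2 or 3 or any 72 h replicate. The lower one was lost without 48 h replicate 2 (adjusted p = 0.0809), 72 h replicate 2 or 72 h replicate 3 (adjusted p = 0.117). Relative to a scaling by the median of ratios, which lowered the median pair feature of this capture by 0.182, the stretch change was 0.23 (adjusted p = 0.683). With contacts within 10 kb of Emu left out it was also 0.23 (adjusted p = 0.352).

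The share of the Emu capture beside its own viewpoint had a lower mean at 72 h. Ends within 10 kb of Emu made up 38.5%, 45.5% and 49.6% at 48 h and 33.9%, 32.4% and 40.6% at 72 h. The groups overlapped, in that 72 h replicate 3 lay above 48 h replicate 1, and the difference of -8.91 percentage points gave an exact two-sided permutation p of 0.2. Same-numbered libraries of this capture deviated together over blocks, though only replicate 1 stood well apart from libraries with different numbers. The share was lower at 72 h in all 3 same-numbered pairs (exact two-sided sign-flip p = 0.25, the smallest that 3 pairs allow). Because levels are shares of a fixed sum, a lower share here raises the shares elsewhere. The same measure moved by -0.573 points in the hs4 capture (exact permutation p = 0.8) and by 0.337 in the IgG1 capture (exact permutation p = 0.5).

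The IgG1 viewpoint had the opposite sign over the same stretch. Its ends from IgG2a to IgG1 made up 17.4%, 17.5% and 17.6% at 48 h and 15.6%, 15.7% and 16.2% at 72 h. Every 72 h sample lay below every 48 h sample, and the log2 value of -0.14 (SE 0.0505) missed the adjusted threshold (limma adjusted p = 0.352). The values were -0.14 in clone 1 alone and -0.15 in clone 2 alone.

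Within that stretch, the 3 blocks from 100 to 130 kb had the lowest log2 values of the IgG1 capture. The block at 100-110 kb held 2.55%, 2.27% and 2.64% at 48 h and 2.09%, 2.02% and 1.81% at 72 h (log2 -0.33, limma adjusted p = 0.0763). The block at 110-120 kb held 2.74%, 2.35% and 2.96% and then 2.26%, 2.08% and 2.06% (log2 -0.32, limma adjusted p = 0.0763). The block at 120-130 kb held 4.04%, 3.92% and 3.89% and then 3.61%, 3.2% and 3.39% (log2 -0.22, limma adjusted p = 0.114). In all 3 blocks the groups did not overlap, and with the clones kept apart and clone as a term each passed the test (adjusted p = 0.0289). That fit takes the 12 libraries as separate samples, which the labels do not establish.

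The IgG1 capture called 0 of 266 pair features (0%), with 26 at an unadjusted p under 0.05 and a lowest limma adjusted p of 0.161, and limma with voom on recovered contacts also called 0. The lowest p belonged to contacts with both ends at 110-120 kb, at 1.73% ± 0.26 and 1.18% ± 0.0956 (SD, n = 3 each), a log2 value of -0.53. Contacts within 100-110 kb gave -0.45. The leading positive pairs were 130-140 kb with 200-210 kb at 0.84 and 200-210 kb with 210-220 kb at 0.46, and none of these 4 passed. Pairs were named each way by rule, so both signs were bound to appear. The signs did not follow position throughout. Away from Emu, 60-70 kb with 110-120 kb gave 0.90, and on the Emu side contacts within 190-200 kb gave -0.27. The other leading blocks of this capture were 40-50 kb (log2 0.20), 50-60 kb (0.16) and 220-230 kb (0.16).

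From hs4, the lowest log2 values lay past IgG3 toward Emu. The block at 170-180 kb held 2.03%, 2.43% and 2.3% of ends at 48 h and 1.63%, 1.72% and 1.49% at 72 h, with no overlap (log2 -0.48, SE 0.124, limma adjusted p = 0.129). The blocks at 180-190 kb and 200-210 kb gave -0.55 and -0.34, and the whole stretch from IgG3 to Emu went from 11.6% ± 1.28 to 9.92% ± 0.648 (SD, n = 3 each; limma adjusted p = 0.572). The highest log2 values were at 40-50 kb, beside hs4 (0.30), and at 140-150 kb, which holds the IgG1 viewpoint (0.28). None of these passed the test. The block at 170-180 kb was called with the median of ratios (adjusted p = 0.0437) and with voom on recovered contacts (adjusted p = 0.00972).

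The hs4 capture called 0 of 268 pair features (0%), with 22 at an unadjusted p under 0.05 and a lowest limma adjusted p of 0.427. Limma with voom called 1. The pair features with the largest limma statistics were 130-140 kb with 220-230 kb, described below, and contacts within 170-180 kb, at 1.3% ± 0.37 and 0.675% ± 0.138 (SD, n = 3 each). Next came 60-70 kb with 150-160 kb, at 0.0651%, 0% and 0% at 48 h and 0.115%, 0.164% and 0.17% at 72 h, and 70-80 kb with 190-200 kb, at 0.193%, 0.0407% and 0.126% and then 0.00533%, 0% and 0%. The latter rested on 10, 4 and 17 recovered contacts at 48 h and 2, 0 and 0 at 72 h. These last pairs met the level needed for naming only at the time when they were high, so that choice favours their contrast. All 72 h samples lay above or all below all 48 h samples in 35 pair features of the Emu capture (16.9%), 34 of the hs4 capture (12.7%) and 34 of the IgG1 capture (12.8%).

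Contacts between the named sites were measured from both of their ends. Emu capture ends at the IgG1 site made up 6.32%, 6.23% and 6.14% at 48 h and 7.67%, 7.92% and 7.84% at 72 h (log2 0.32, limma adjusted p = 0.28). Seen from IgG1, ends at the Emu site made up 8.5%, 10.7% and 10.3% and then 9.99%, 11.1% and 12% (log2 0.17, limma adjusted p = 0.496). The first view had no overlap between the times and the second did, and neither passed the test. In the second, clone 1 alone gave 0.42 and clone 2 alone -0.03.

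Between hs4 and IgG1 the views also had the same sign. The hs4 capture held 2.74%, 2.7% and 3.35% of its ends at the IgG1 site at 48 h and 3.56%, 3.82% and 3.48% at 72 h, without overlap (log2 0.31, limma adjusted p = 0.572). The IgG1 capture held 5.65% ± 0.186 and 5.91% ± 0.233 at the hs4 site (SD, n = 3 each; log2 0.06). With the median of ratios that last value was -0.04. Between Emu and hs4 the signs differed, at -0.14 for hs4 seen from Emu and 0.05 for Emu seen from hs4, with limma adjusted p of 0.728 and 0.893.

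At the remaining constant-gene sites no view passed. The IgG2a site went from 1.44% ± 0.461 to 2.52% ± 0.861 of ends from Emu, from 3.81% ± 0.468 to 3.52% ± 0.256 from hs4 and from 2.28% ± 0.197 to 1.99% ± 0.138 from IgG1 (SD, n = 3 each). The IgG3 site gave log2 values of -0.08 from Emu, -0.35 from hs4 and -0.04 from IgG1. Contacts within the window of a named site gave 0.36 for IgG1 and -0.20 for hs4 seen from Emu, 0.14 for IgG1 and -0.23 for Emu seen from hs4, and 0.11 for Emu and -0.002 for hs4 seen from IgG1.

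No other stretch passed the test. Beyond hs4 the log2 values were 0.29 from Emu, -0.06 from hs4 and 0.03 from IgG1, and from hs4 to IgG2a they were 0.14, 0.11 and 0.05, which became -0.08, -0.15 and -0.05 with the median of ratios. From IgG1 to IgG3 they were 0.53, -0.09 and -0.04, and from IgG3 to Emu -0.002, -0.22 and 0.05.

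**Figure D2:**
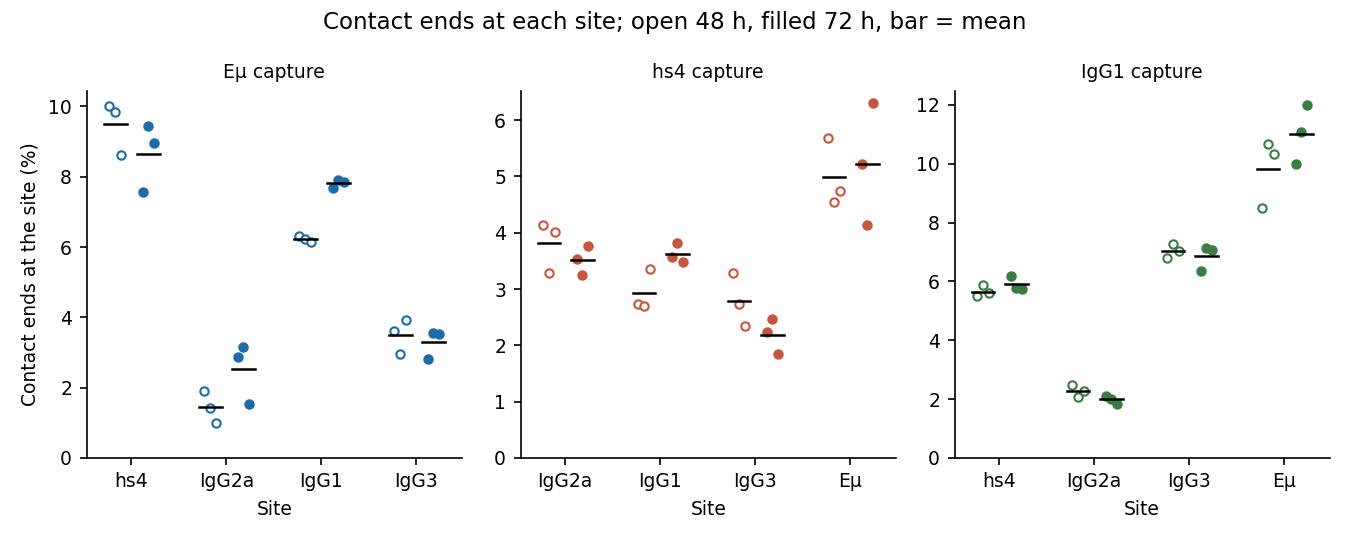
Percentage of contact ends (y axis) at each site other than the captured one (x axis), one panel per capture, with open points for the 48 h samples, filled points for the 72 h samples and bars for the means of 3. In the Emu capture the IgG1 site goes from 6.23% to 7.81% with no overlap.

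A contact that joins Emu, hs4 and IgG1 at once can be read from each of the 3 captures. From Emu, contacts of hs4 with IgG1 made up 0.439%, 0.368% and 0.267% at 48 h and 0.452%, 0.829% and 0.284% at 72 h. From hs4, contacts of IgG1 with Emu made up 0.153%, 0.0349% and 0.123% and then 0.362%, 0.0984% and 0.275%. From IgG1, contacts of hs4 with Emu made up 0.418%, 0.243% and 0.45% and then 0.573%, 0.385% and 0.587%. The mean was higher at 72 h in each capture, and the times overlapped in each. In each capture the share was higher at 72 h for all 3 replicate numbers, though the numbers were not taken as pairs in the hs4 and IgG1 captures. The log2 values were 0.42, 1.13 and 0.48, with limma adjusted p of 0.755, 0.663 and 0.496. Few contacts lay behind them, since the hs4 capture had 7, 5 and 8 recovered contacts at 48 h and 40, 14 and 20 at 72 h. On recovered contacts the Emu value was -0.08.

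Averaged over the captures by replicate number, this 3-way share was 0.337%, 0.215% and 0.28% at 48 h and 0.462%, 0.438% and 0.382% at 72 h. All 72 h values lay above all 48 h values, at an exact two-sided permutation p of 0.1, the smallest that 3 against 3 allows. This average was added after the values of the captures had been seen. Same-numbered libraries of different captures did not deviate together throughout, so its grouping by number is uncertain. Set against the ends at the same sites, as a hub ratio among contacts at least 20 kb apart, the means were 0.974 and 1.44 from Emu, 0.873 and 1.29 from hs4 and 1.32 and 1.51 from IgG1, with exact permutation p of 0.4, 0.5 and 0.5.

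Map-wide, contacts between close places took a smaller mean share at 72 h in all 3 captures. Contacts with ends under 20 kb apart made up 66.4%, 76.6% and 69.2% of the hs4 capture at 48 h and 63.4%, 63.9% and 65.2% at 72 h, without overlap (exact permutation p = 0.1). The Emu capture had means of 83.2% and 80.5%, and the IgG1 capture of 75.8% and 72.4%, both with overlap (exact permutation p = 0.4 and 0.3). In each capture the share was lower at 72 h for all 3 replicate numbers (exact sign-flip p = 0.25 in the Emu capture). The numbers were not taken as pairs in the hs4 and IgG1 captures. The IgG1 difference was -5.59 points in clone 1 alone and -1.05 in clone 2 alone. No single value could pass, since 12 were tested and each had a smallest possible p of 0.1. Their lowest adjusted p was 0.6.

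The share of contacts with ends on opposite sides of the IgG1 viewpoint depended on which contacts formed the total. Of all contacts, the mean went from 9.46% to 10.1% in the Emu capture, from 11.9% to 14% in the hs4 capture and from 13.2% to 14.6% in the IgG1 capture, with exact permutation p of 1, 0.3 and 0.5. Among contacts at least 20 kb apart the differences had the other sign, at -5.19, -1.49 and -2.12 points, and the times did not overlap in the Emu and IgG1 captures (exact permutation p = 0.1, 0.5 and 0.1).

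**Figure D3:**
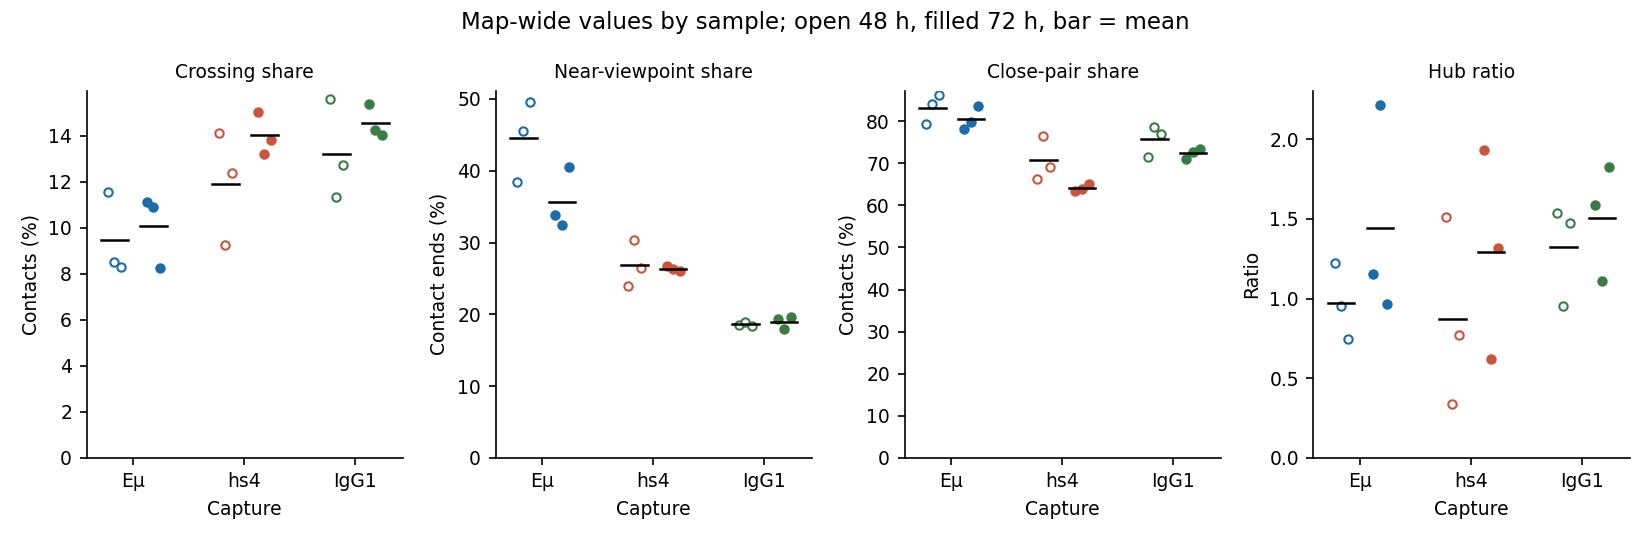
Map-wide values (y axes, percent or ratio) for each capture (x axis), with open points for the 48 h samples, filled points for the 72 h samples and bars for the means of 3. The close-pair share of the hs4 capture is the only one of the 12 in which the times do not overlap.

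Whether the changes shared a direction was asked first over all blocks. The block changes correlated at Pearson r = -0.118 (Spearman rho = -0.197) between the Emu and hs4 captures, at -0.371 (-0.357) between Emu and IgG1 and at 0.117 (0.217) between hs4 and IgG1, each over 24 blocks. These are descriptions, since blocks of one map share a library, its depth and a fixed sum. The sign was the same in 12, 7 and 13 of 24 blocks. With blocks of 20 kb the Emu and hs4 value was 0.135.

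**Figure D4:**
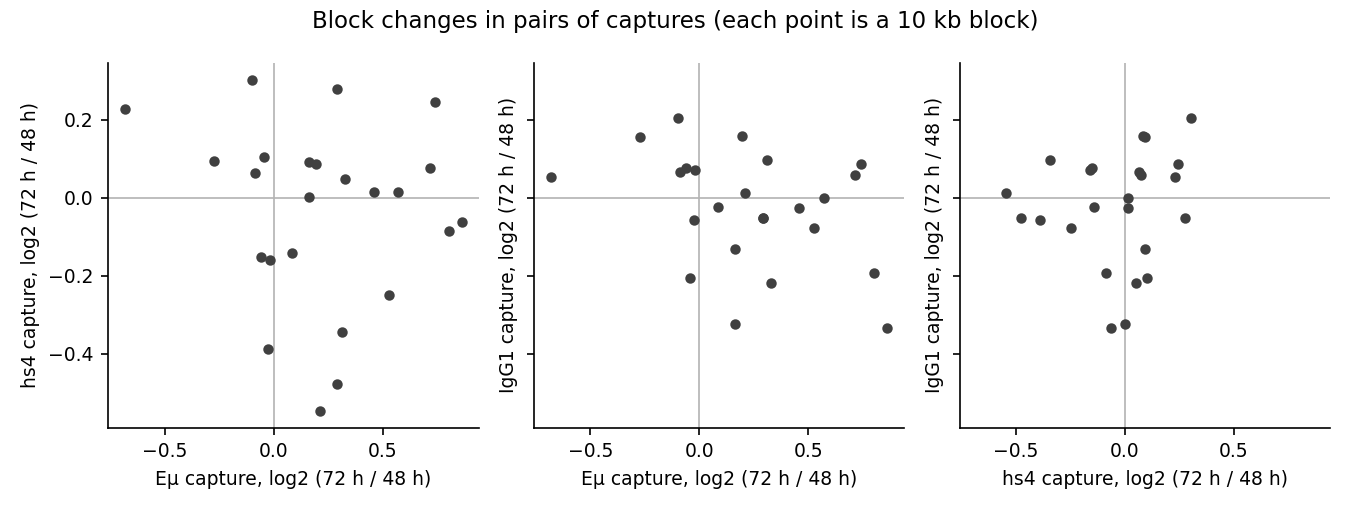
Log2 change from 48 h to 72 h of each 10 kb block in one capture (x axis) against another (y axis), for the 3 pairs of captures, with 1 point per block. No pair of captures shows a shared rising trend, and the sign is the same in 12, 7 and 13 of 24 blocks.

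One block stood out when the captures were averaged by replicate number, at 130-140 kb, next to the IgG1 viewpoint on its IgG2a side. It held 2.72%, 3.28% and 3.62% of Emu ends at 48 h and 5.87%, 5.73% and 4.52% at 72 h. In the hs4 capture the values were 4.58%, 5.07% and 4.34% and then 5.73%, 5.82% and 5.04%, and in the IgG1 capture 6.65%, 6.72% and 6.48% and then 6.93%, 6.62% and 7.57%. The times were apart in the Emu capture and overlapped in the others. The log2 changes were 0.74, 0.25 and 0.09, and their mean of 0.36 (SE 0.0711) was the only one of 24 blocks called (4.17%; limma adjusted p = 0.0425). The call held without 72 h replicate 3 (adjusted p = 0.0408) and was lost without any other of the 5 replicates, with adjusted p from 0.085 to 0.26. It was also lost with the replicate number as a block (adjusted p = 0.117). Without the Emu capture the mean was 0.17 (adjusted p = 0.275). With the median of ratios it was 0.17 (adjusted p = 0.478), and with contacts near each viewpoint left out 0.11 (adjusted p = 0.603). Averages by number rest on a grouping that the libraries do not bear out throughout. Across captures, same-numbered libraries deviated together for Emu and IgG1 at 48 h (r = 0.335, 0.409 and 0.337). At 72 h they did not throughout (r = 0.0344, -0.288 and 0.521), and libraries with different numbers reached 0.503. For Emu and hs4 r ranged from -0.535 to 0.251, and for hs4 and IgG1 from -0.329 to -0.043.

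The same block paired with 220-230 kb, which holds the Emu viewpoint, was the only one of 178 pair features called in the mean of the captures (0.562%). From Emu the pair made up 0.38%, 0.649% and 0.441% of contacts at 48 h and 0.828%, 1.1% and 0.535% at 72 h. From hs4 it made up 0.1%, 0.0396% and 0.162% and then 0.48%, 0.388% and 0.319%, and from IgG1 0.524%, 0.409% and 0.514% and then 0.651%, 0.484% and 0.733%. The hs4 values did not overlap between times and the others did. The mean log2 change was 1.00 (SE 0.231, limma adjusted p = 0.0419), with 0.70, 1.95 and 0.35 in the Emu, hs4 and IgG1 captures. The call was lost with a pseudocount of 10 (adjusted p = 0.0572) and with the median of ratios (adjusted p = 0.205), and without 72 h replicate 1 (adjusted p = 0.451), 2 (0.194) or 3 (0.177) or 48 h replicate 2 (0.0811).

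**Figure D5:**
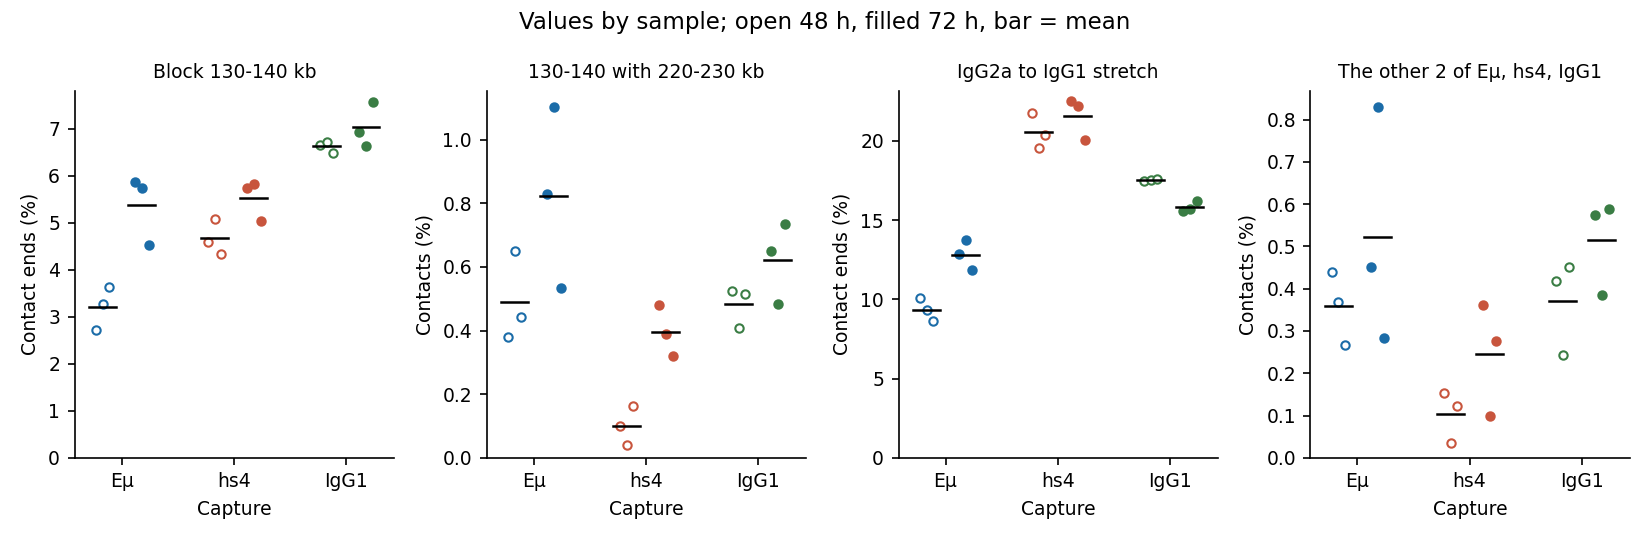
Percentage of contact ends or contacts (y axes) in each capture (x axis) for the block at 130-140 kb, its pair with 220-230 kb, the stretch from IgG2a to IgG1, and the 3-way contact of Emu, hs4 and IgG1. Open points are the 48 h samples, filled points the 72 h samples and bars the means of 3. In the stretch the Emu values go from 9.34% to 12.8% and the IgG1 values from 17.5% to 15.9%.

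Over the 178 pair features, 51 had a positive log2 value in all 3 captures and 12 a negative one. Pair features leaned positive in general, at 118 of 207 from Emu, 164 of 268 from hs4, 166 of 266 from IgG1 and 125 of 178 in the mean. Over the features of each capture the median log2 values were 0.203, 0.245 and 0.0906. In the comparison with the median of ratios, the main medians were 0.18, 0.244 and 0.0904, not over the same set of features. The median of ratios took those to -0.0214, 0.018 and 0.00136. The part of this lean in the 51 and 12 was not tested. The pairs with the next largest statistics in the mean were 30-40 kb with 230-234 kb, an hs4 to Emu pair, at 1.2 (limma adjusted p = 0.32), and on the negative side 70-80 kb with 220-230 kb at -1.06 and 170-180 kb with 190-200 kb at -0.91. Among blocks the next were 0-10 kb at 0.28 and 140-150 kb at 0.17 on the positive side, and 170-180 kb at -0.08, 230-234 kb at -0.13 and 190-200 kb at -0.16 on the negative side. None of these passed the test. Not all of them shared a sign over the captures. The pair of 170-180 kb with 190-200 kb gave -1.91 from Emu, -1.37 from hs4 and 0.56 from IgG1. Signs were also mixed for the blocks at 140-150 kb, 170-180 kb and 230-234 kb.

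The captures differed from each other in the middle of the locus, at 170-180 kb and at the Emu end of the map. The test of the time by capture interaction called 3 of 24 blocks (12.5%) and 5 of 178 pair features (2.81%). For blocks it called 1 with the replicate block or the median of ratios, and 0 without 48 h replicate 2 (lowest adjusted p = 0.105), 72 h replicate 1 (0.162) or 72 h replicate 2 (0.173). For pair features it called 5 with the replicate block, 2 with the median of ratios, and 0 without 48 h replicate 2 (lowest adjusted p = 0.0634) or 3 (0.0958) or 72 h replicate 1 (0.0843) or 2 (0.0692). For the stretch from IgG2a to IgG1 the log2 changes were 0.46 from Emu, 0.07 from hs4 and -0.14 from IgG1 (limma adjusted p = 0.00583). The hs4 value was -0.18 with the median of ratios. For the block at 100-110 kb they were 0.86, -0.06 and -0.33 (limma adjusted p = 0.0425), and for 130-140 kb they were 0.74, 0.25 and 0.09 (limma adjusted p = 0.0425), the hs4 value being -0.01 with the median of ratios. For the block at 170-180 kb they were 0.29, -0.48 and -0.05 (limma adjusted p = 0.0292). This test takes 1 spread for all captures, although the Emu capture varied more than the IgG1 capture. It also counts same-numbered samples of different captures as independent, which the labels do not establish.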

How the data were processed

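Tri-C maps of 24 libraries at 48 h and 72 h were analysed. Per the labels' protocols, chromatin was crosslinked with formaldehyde, cut with NlaIII and ligated, and libraries were hybridized to their probe in repeated rounds. Reads were aligned with Bowtie2 to mm9, per the submitters' processing notes. For the Bowtie2 version, the contact caller and duplicate handling, nothing was stated in the labels. The deposited signal is a matrix of 1 kb bins that the authors scaled to a sum of 300000, as the values show.

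Depth was inferred. Values behaved as whole contacts divided by a whole number per bin and library. Off the diagonal, 97.3% to 100% of a library's values below 20 contacts came out whole within a tolerance of at least 0.04, wider where rounding required it. The fit sought this, so the share does not test it. The diagonal did not enter the fit, and 84% to 100% of its values were whole, over 90% in 19 of 24 libraries. All libraries below that came from the Emu capture, which had 84.4% to 90.3% at 48 h and 84% to 86.8% at 72 h. Recovered contacts are thus least well checked in that capture. Recovered contacts served as depth and for the voom alternative, and counts of contact ends among them were halved.

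Blocks of 10 kb (the last of 4 kb), block pairs, sites of 5 kb to each side of a viewpoint, site pairs and stretches were kept where they averaged 100 or more of the 300000. Their log2(value + 50) entered limma 3.58.1 (R 4.3.3), so that low features have understated changes. Blocks had a constant prior variance and pair features a trended one. Adjustment at 0.05 ran over all blocks or all pair features of a fit. Blocks and their neighbours, sites and stretches overlap in part. Single values had exact permutation tests in scipy 1.17.1, adjusted over 12. Regions named were all sites, stretches and site pairs of Emu, hs4 and IgG1, the 3 leading blocks and 2 leading block pairs each way by limma statistic, and every called feature. Leading pairs needed a mean of at least 300 of 300000 at the time with the higher mean, so a pair could be named through that time alone. Members, lists and tests were chosen with earlier results of these data known. Libraries at 0 h entered only an alternative. Alternatives changed the pseudocount, filter, scaling, block size, samples and replicate block. In the Emu capture same-numbered libraries deviated together over blocks (r = 0.523, 0.137 and 0.18). Libraries with different numbers reached r = 0.103 and 0.0646, so by that measure the pairing is clear only for replicate 1. No label says what same-numbered libraries share, and the main fits took no pairs. The recovery of contacts was tested on simulated libraries drawn from its own recovered contacts and divisors. Such a test cannot show whether the deposited values have the assumed form.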

Additional observations from a re-analysis of the deposited data

Results flagged for a closer look

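The change from 48 h to 72 h differed between the captures, by a test of the difference itself, in 8 features that overlap in part. That test counts same-numbered samples of different captures as independent, which the labels do not establish. Among blocks these were 100-110 kb (limma adjusted p = 0.0425), 130-140 kb (adjusted p = 0.0425) and 170-180 kb (adjusted p = 0.0292). Of the 24 blocks, 1 was called with the replicate block and 1 with the median of ratios, and 0 without 48 h replicate 2, 72 h replicate 1 or 72 h replicate 2 (lowest adjusted p of 0.105, 0.162 and 0.173).

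Among pair features they were contacts within 80-90 kb, with log2 values of 1.23 from Emu, -0.21 from hs4 and -0.31 from IgG1 (limma adjusted p = 0.00583), and contacts within the IgG2a window, which covers that block, with 1.16, -0.23 and -0.32 (adjusted p = 0.00659). Contacts within 170-180 kb gave 0.59, -0.91 and -0.17 (limma adjusted p = 0.016), and contacts within 230-234 kb, at the Emu end of the map, gave -1.05, 1.21 and -0.09 (adjusted p = 0.016). The stretch from IgG2a to IgG1 gave 0.46, 0.07 and -0.14 (limma adjusted p = 0.00583). Of the 178 pair features, 2 were called with the median of ratios and 0 without 48 h replicate 2 or 3 or 72 h replicate 1 or 2. Recovered depth at 48 h and 72 h did not overlap in the Emu capture, at 21245 to 21831 and 13444 to 16212 contacts, and its part in these differences was not tested.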

How the results depend on the processing

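Of 77 named regions, 52 kept 1 direction under all alternatives run for them, 10 changed sign when a replicate was left out and 22 under another alternative. The calls were fragile. The Emu pair features, 4 called, gave 0 with a pseudocount of 10 or 200, without contacts near the viewpoint, with 20 kb blocks or with 0 h libraries, 1 with the median of ratios (within 230-234 kb, one of the 4), 1 with voom (none of the 4), and 0 to 6 with a replicate left out. The call of 1 block in the mean of the captures became 0 with the median of ratios, without contacts near the viewpoint, with 20 kb blocks, with the replicate block, for hs4 and IgG1 or for Emu and hs4, and was 0 to 1 with a replicate left out. The call of 1 pair feature became 0 with a pseudocount of 10, no filter, the median of ratios, without contacts near the viewpoint, with 20 kb blocks, with 0 h libraries, with capture as a term, for hs4 and IgG1 or for Emu and IgG1, became 2 for Emu and hs4, and was 0 to 2 with a replicate left out. Blocks that differed between captures, 3 called, became 1 with the median of ratios or the replicate block, and 0 to 3 with a replicate left out. Pair features that differed, 5 called, became 2 with the median of ratios, 3 without contacts near the viewpoint or with 20 kb blocks, and 0 to 7 with a replicate left out.

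Where no block was called, voom called 2 in the Emu, 2 in the hs4 and 5 in the IgG1 capture, the median of ratios 2 in hs4 and 2 in IgG1, 20 kb blocks 1 in hs4 and 2 in IgG1, the clones kept apart 3 in IgG1, and removal of contacts near the viewpoint 1 in IgG1, with 0 to 2 in IgG1 when a replicate was left out. Pair features in hs4 gave 1 with voom and 0 to 1 with a replicate left out. In IgG1 they gave 1 without contacts near the viewpoint and 2 with the replicate block. Same-numbered libraries deviated together in neither capture throughout (r = 0.255, -0.15 and 0.0932 in hs4, and 0.476, 0.0602 and -0.34 in IgG1), so there the numbers were not taken as pairs. In the Emu capture the replicate block kept all 4 calls and gave 5 in all. For the single values a replicate block cannot change the difference of means, so the unchanged values are no check of it. Only the p can change. For the hs4 crossing share, at 2.11 points, the exact sign-flip p was 0.25.

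Among contacts at least 20 kb apart the crossing share changed by -5.19 (Emu), -1.49 (hs4) and -2.12 (IgG1) points, and the hs4 near-viewpoint share by 0.0606. With a 20 kb limit the near-viewpoint share changed by 0.349 (hs4) and -0.74 (IgG1), and the hs4 value ranged from -2.07 to 1.14 with a replicate left out. Block correlations with 20 kb blocks were 0.135 (Emu and hs4) and -0.674 (Emu and IgG1), and with a replicate left out -0.228 to -0.00349 (Emu and hs4), -0.521 to -0.0971 (Emu and IgG1) and -0.189 to 0.232 (hs4 and IgG1).

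The median of ratios lowered the median block change by 0.222, 0.251 and 0.101 in the Emu, hs4 and IgG1 captures. Under it the log2 values that changed sign were, from Emu, hs4 to IgG2a (-0.083), from hs4, 130-140 kb (-0.00575), within IgG1 (-0.11), hs4 to IgG2a (-0.15), IgG2a to IgG1 (-0.18) and Emu (-0.20), from IgG1, hs4 (-0.038), beyond hs4 (-0.075), hs4 to IgG2a (-0.051) and IgG3 to Emu (-0.052), and in the mean 140-150 kb (-0.019). With voom they were IgG3 (0.0032) and hs4 with IgG1 (-0.081) from Emu, and within IgG1 (-0.11) from hs4. Without contacts near the viewpoint they were hs4 to IgG2a from Emu (-0.084), Emu from hs4 (-0.0103) and within hs4 from IgG1 (0.023). Clone 1 alone gave 50-60 kb (-0.028) and within hs4 (0.093). Clone 2 alone gave 220-230 kb (-0.014), hs4 (-0.025), IgG3 (0.12), IgG1 to IgG3 (0.000906), Emu (-0.035) and within Emu (-0.085), and the clones kept apart within hs4 (0.014). In the mean, 230-234 kb gave 0.14 for hs4 and IgG1 and 170-180 kb 0.12 for Emu and IgG1. With a replicate left out, the ranges that crossed 0 were -0.26 to 0.0018 for 230-234 kb and -0.31 to 0.079 for 190-200 kb in the mean, -0.19 to 0.033 for IgG3 and -0.10 to 0.14 for IgG3 to Emu from Emu, -0.14 to 0.029 for beyond hs4 and -0.095 to 0.21 for Emu from hs4, and -0.069 to 0.016 for IgG3, -0.11 to 0.091 for within hs4, -0.0100 to 0.073 for beyond hs4 and -0.023 to 0.21 for within Emu from IgG1. The cause was not tested. Removal of contacts near the viewpoint leaves no value for 230-234 kb from Emu or for 130-140 kb with 220-230 kb in the mean. Depth limits low features most, since some pairs rest on under 20 recovered contacts in a library.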
